A study of Mus musculus with 12 samples.

Results

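Loss of Mzb1 was examined for its effect on one step of B cell differentiation, from activated B cells to plasmablasts, with the 8 of 12 libraries that hold these populations. The quantity is an interaction, the log2 change from activated B cells to plasmablasts in knockout (ko) cells minus the same change in wild-type (wt) cells. A positive value means that a gene rose more, or fell less, in ko than in wt. All mice were C57BL/6 and carried a gfp reporter in 1 of their Prdm1 alleles (Prdm1+/gfp), in wt (Mzb1+/+) and ko (Mzb1-/-) alike. Spleen B cells enriched on B220 beads were kept for 4 days with lipopolysaccharide (LPS) at 25 µg/ml and then sorted. Activated B cells lacked both CD138 and reporter signal, and plasmablasts had both. The 4 groups of the contrast hold 2 libraries each, and pre-plasmablasts (reporter positive, CD138 negative, 4 libraries) were set beside them. The labels do not say whether the replicates of a group came from separate animals. Sex-linked genes, given below, differ between the wt replicates, which thus came from different animals, while the ko replicates may be technical. The p-values measure the spread between these samples.

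A B cell that becomes a plasmablast turns on the transcription factor Blimp1, encoded by Prdm1. Blimp1 shuts down B cell genes such as Pax5, while Irf4 and Xbp1 help build the secretory machinery for antibody. Mzb1 is a protein of the endoplasmic reticulum (ER) in B cells and a partner of the chaperone Hsp90b1. It supports antibody secretion and integrin activation, and is induced as plasma cells form.

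The files give FPKM, in which fragments are divided by transcript length and library total, and no counts, so the depth behind them is unknown. The 8 libraries summed to between 418966 and 581262 FPKM, and 10180 to 10466 genes reached 1 FPKM in each. Low values followed a pair of patterns, set by what 1 fragment is worth. The first pattern was found in every wt library and in ko activated B cell replicate 1, while ko activated B cell replicate 2 and both ko plasmablast libraries shared the second. Leaving out ko activated B cell replicate 1 therefore compares wt and ko change each within 1 pattern, and that value is given beside the results it moves most. Replicate 1 of wt had Xist, transcribed from the inactive X chromosome, at 81.4 FPKM in activated B cells and 33.3 in plasmablasts. The other libraries of the contrast had at most 0.389. The Y-linked gene Kdm5d was listed at 0 in these 2 wt replicate 1 libraries and at 5.49 to 8.91 FPKM in the other 6 of the contrast. Thus wt replicate 1 had the values of female cells, and wt replicate 2 and all ko libraries those of male cells.

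For most genes the change with differentiation was close in both genotypes. limma called 6864 of 11069 genes between wt activated B cells and wt plasmablasts (62% of all tested, 31% each way) and 6880 (62.2%) in ko, of which 31.2% of all tested rose and 30.9% fell. Between genotypes it called 6 genes in activated B cells (0.0542%), 13 in pre-plasmablasts (0.117%) and 45 in plasmablasts (0.407%). The interaction was called for 5 genes, 0.0452% of all tested, of which 2 were positive (0.0181%) and 3 negative (0.0271%), at an adjusted p below 0.05. At an unadjusted p below 0.05 there were 459 genes (4.15%), 244 positive and 215 negative. The median absolute change was 0.47 on the log2 scale in each genotype, and the median absolute interaction was 0.12 with a median standard error (SE) of 0.18. Of 2437 genes whose change, averaged over wt and ko, was at least 1, the 95% interval of the interaction lay inside ±1 for 2034 (83.5%) and inside ±0.5 for 692. For the other genes the interval reached beyond ±1.

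A call in 1 genotype alone is not a difference between genotypes. There were 750 called in wt alone and 766 in ko alone, beside 6114 called in both, and the interaction was called for 1 (Snora28) and 0 of the first pair of sets. Their median absolute interactions were 0.23 and 0.22. Among 1441 genes with a mean rise of at least 1, the interaction was above 0 in 50.6% with a median of 0.00. Among 996 genes with a mean fall of at least 1 it was above 0 in 62.3% with a median of 0.07, against 52.5% of all genes with a median of 0.01.

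**Figure D1:**
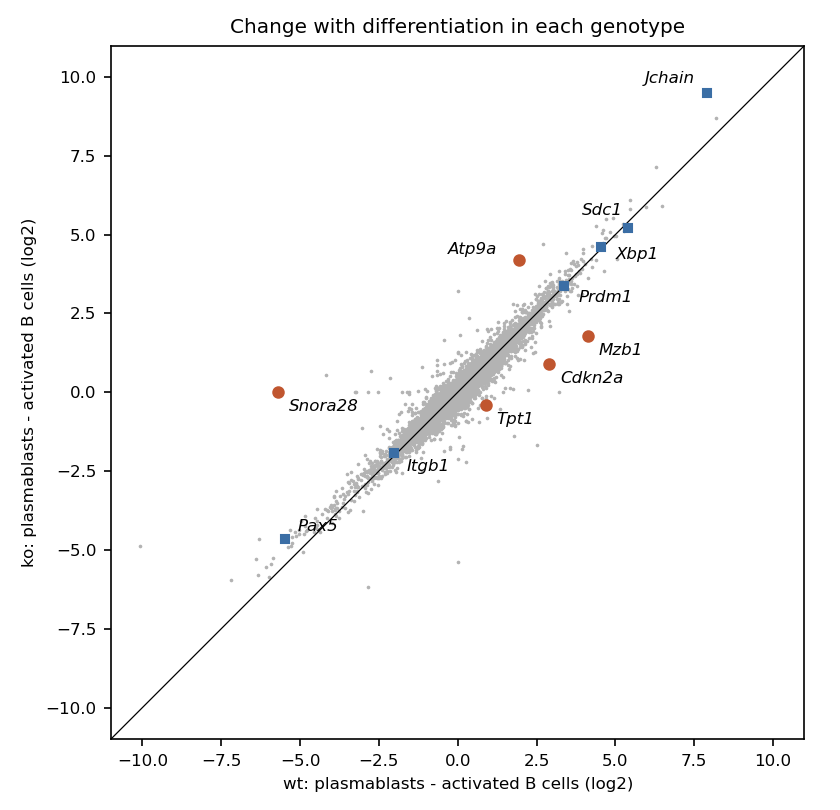
Each point is 1 of 11069 genes, with its log2 change from activated B cells to plasmablasts in wt on the x axis and in ko on the y axis. Points on the line changed alike, the 5 called genes are orange circles, and 6 genes of the differentiation programme are blue squares, of which Prdm1, Xbp1 and Itgb1 lie on the line.

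Of the regulators of the programme, Prdm1, Xbp1 and Irf4 had interactions near 0. Those of Pax5 (0.81), Bhlha15 (0.91) and Spib (1.12), given below, were positive and not called. Their 95% intervals, not adjusted for the number of genes tested, lay above 0. Prdm1 had 21.6 and 19.2 FPKM in wt activated B cells and 19.9 and 25.4 in ko, and 218 and 226 in wt plasmablasts against 263 and 227 in ko. Its libraries overlapped between genotypes in activated B cells, in plasmablasts the lower ko library was barely above the higher wt library, the change was 3.38 in wt and 3.39 in ko, and the interaction was 0.00 (SE 0.19, 95% interval -0.42 to 0.42). Xbp1 had 99.7 and 105 FPKM in wt activated B cells and 76.5 and 86.8 in ko, then 2363 and 2519 in wt plasmablasts and 2031 and 2013 in ko. Both ko pairs lay below the wt pairs, by a like amount in each population, and the interaction was 0.06 (SE 0.13, interval -0.24 to 0.35). Irf4, at 64.5 to 79.3 FPKM in all 4 activated libraries and 266 to 310 in all 4 plasmablast libraries, had an interaction of -0.05 (SE 0.17). Prdm1, through the reporter, and Sdc1, which encodes CD138, were used in the sort, so their levels are in part set by it in both genotypes. Sdc1 had an interaction of -0.17 (SE 0.27, interval -0.76 to 0.42).

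Jchain, whose product joins the chains of polymeric antibody, was the widest of these. It had 69.4 and 103 FPKM in wt activated B cells and 14.3 and 39.2 in ko, against 19054 and 22617 in wt plasmablasts and 16299 and 19530 in ko. The genotypes were apart in activated B cells and overlapped in plasmablasts. The interaction was 1.57 (SE 0.50, adjusted p = 1) and not called. It was 0.87 without ko activated B cell replicate 1, the lowest library, and 2.26 and called without replicate 2.

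**Figure D2:**
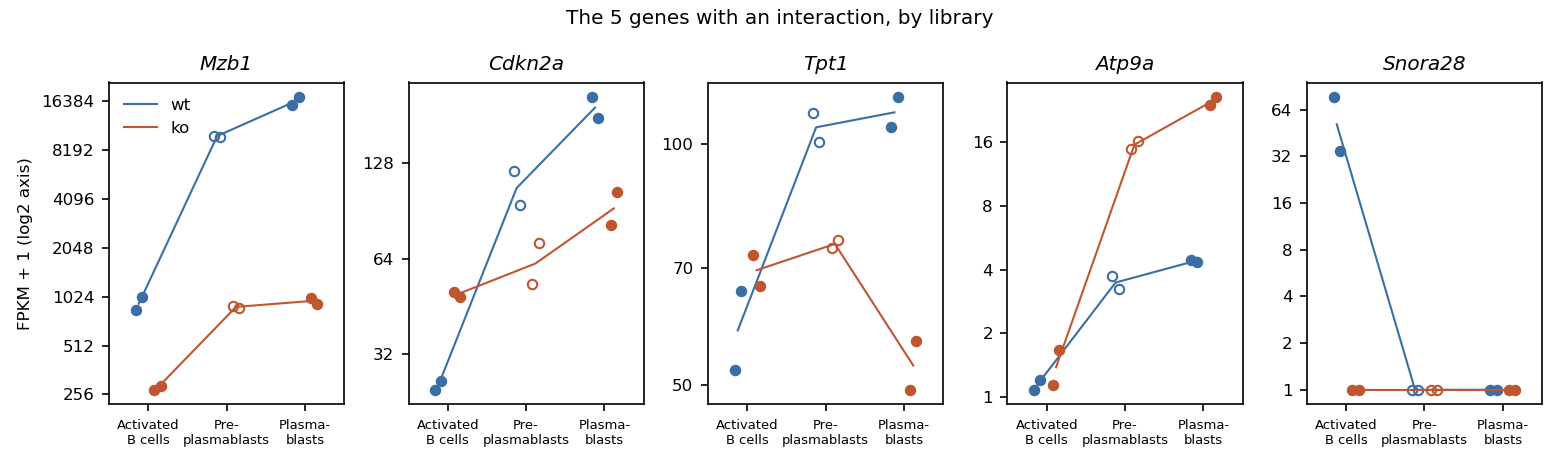
FPKM + 1 on a log2 axis in each of the 12 libraries for the 5 genes with a called interaction, wt blue and ko orange, with lines through the group means of the log2 values. Open points are pre-plasmablasts, which are outside the contrast. The wt and ko lines diverge from activated B cells to plasmablasts for Mzb1 and Atp9a, cross for Cdkn2a and Tpt1, and meet at 0 FPKM for Snora28.

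Mzb1, the deleted gene, led the negative interactions. It had 845 and 1016 FPKM in wt activated B cells, 273 and 289 in ko, 15434 and 17359 in wt plasmablasts, and 1008 and 926 in ko. No ko library reached the lowest wt library of its population, yet transcripts assigned to Mzb1 rose in both genotypes, 17.6-fold in wt and 3.43-fold in ko on the FPKM + 1 scale. The interaction was -2.36 (SE 0.18, adjusted p = 0.000434), since ko was further below wt in plasmablasts (-4.08) than in activated B cells (-1.72). The deleted part of the gene is not given in the sources used here, so what the remaining fragments are was not tested. Quantile normalization gave -1.64. The call was lost without replicate 2 of ko in all 3 populations (-2.26, adjusted p = 0.051).

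Cdkn2a was the 1 called member of the DNA replication and mitosis list. It encodes a pair of unrelated tumour suppressors, p19Arf, which stabilizes p53, and p16Ink4a, which inhibits cyclin-dependent kinases, from separate first exons and promoters. The deposited FPKM are given per symbol, so the transcripts from both starts cannot be told apart in these values. The 250 bases before each of the 2 starts on chromosome 4, minus strand, are printed to show how unlike these promoters are (RefSeq, GRCm38.p6, 5′ to 3′, every CG in capitals). The upstream start (chr4:89294620-89294869) is start 1 and the downstream start (chr4:89282193-89282442) is start 2.
Cdkn2a start 1: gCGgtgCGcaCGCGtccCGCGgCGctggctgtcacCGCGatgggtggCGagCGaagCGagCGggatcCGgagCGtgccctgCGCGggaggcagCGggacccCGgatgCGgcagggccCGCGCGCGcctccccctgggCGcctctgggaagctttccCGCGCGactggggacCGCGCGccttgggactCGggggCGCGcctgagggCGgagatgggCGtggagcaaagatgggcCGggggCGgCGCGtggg
Cdkn2a start 2: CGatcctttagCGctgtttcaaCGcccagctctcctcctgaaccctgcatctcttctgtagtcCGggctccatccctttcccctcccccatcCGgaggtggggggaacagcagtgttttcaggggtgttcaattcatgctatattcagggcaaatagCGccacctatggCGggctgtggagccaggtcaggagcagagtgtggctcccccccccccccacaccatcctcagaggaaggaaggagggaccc
Start 1 holds 40 CG and start 2 holds 7. CG reads the same on both strands, 92.1% of 32851 promoters of that length hold at least 1, and the median is 6.

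Cdkn2a had 23.7 and 25.3 FPKM in wt activated B cells and 49.3 and 47.5 in ko. In plasmablasts it had 206 and 177 in wt and 80.6 and 103 in ko. The ko libraries were thus above wt in activated B cells and below it in plasmablasts, and no library overlapped in either population. The ko minus wt difference did not pass in activated B cells (0.95, adjusted p = 0.161) and passed in plasmablasts (-1.06, adjusted p = 0.0292). Cdkn2a rose by 2.91 in wt and by 0.90 in ko, and the interaction was -2.01 (SE 0.23, interval -2.53 to -1.49, adjusted p = 0.0128). In pre-plasmablasts wt had 120 and 93.3 FPKM and ko 52.4 and 70.6, with ko lower by a log2 change of -0.79 that did not pass (adjusted p = 0.116). The size lay between -2.21 and -1.81 in 31 other settings, and the call was lost in 10 of them. Of single libraries left out, the call ended without wt activated B cell replicate 1 or 2 (adjusted p = 0.0956 and 0.0668), ko activated B cell replicate 1 (0.0923), wt plasmablast replicate 1 or 2 (0.0702 and 0.0561) and ko plasmablast replicate 1 (0.0675).

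The genes on either side of Cdkn2a are given beside it and were named after their values were seen. Cdkn2b, which encodes the inhibitor p15Ink4b, had 3.08 and 4.33 FPKM in wt activated B cells and 2.92 and 5.22 in ko, and 46.4 and 41.3 in wt plasmablasts against 33.4 and 37.0 in ko. It rose steeply in both genotypes, and its interaction was -0.39 (SE 0.34, interval -1.14 to 0.36). Mtap, an enzyme of methionine salvage, had lower values in ko in both populations, but the difference passed in neither. Its adjusted p was 0.321 in activated B cells and 0.0626 in plasmablasts. Activated B cells had 22.3 and 22.3 FPKM without the deletion and 14.6 and 15.3 with it, and in plasmablasts 30.2 and 29.8 stood against 17.6 and 20.4. Its interaction was -0.09 (SE 0.18).

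Tpt1 was called with opposite signs in wt and ko. It encodes a growth-related protein whose mRNA, like those of ribosomal proteins, carries a terminal oligopyrimidine tract through which translation is regulated. Its FPKM were 51.2 and 64.4 in wt and 71.7 and 65.4 in ko activated B cells, and 104 and 113 in wt against 48.3 and 55.6 in ko plasmablasts. The ko plasmablasts were the lowest of the 12 libraries apart from wt activated B cell replicate 1, and the wt plasmablasts were at or near the top. Tpt1 rose by 0.90 in wt (adjusted p = 4.95e-05) and fell by 0.40 in ko (adjusted p = 0.0116), with an interaction of -1.30 (SE 0.16, adjusted p = 0.0194). In pre-plasmablasts ko had 73.1 and 74.8 FPKM and wt 108 and 99.5 (-0.48, adjusted p = 0.137). The call was lost in 14 of 31 other settings, with the value between -1.47 and -1.13. These settings include a term for the fragment pattern (-1.28, adjusted p = 0.0601). They also include leaving out replicate 1 of wt or ko activated B cells (adjusted p = 0.075 and 0.14), replicate 1 or 2 of wt plasmablasts (0.0702 and 0.141) and replicate 1 or 2 of ko plasmablasts (0.12 and 0.0516). Pim2, a survival kinase, was the other gene called with opposite signs (0.30 in wt, -0.46 in ko), and its interaction of -0.77 was not called (adjusted p = 0.356).

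Genes of the cytosolic ribosome leaned the same way as Tpt1. This set was picked by symbol after Tpt1, Rpl6 and Rpl10a had been seen, so its values are a description. None of its 79 members was called, 65 (82.3%) had a negative interaction against 47.5% of all genes, and the median was -0.40. Of its members, 19 had a negative and 1 a positive interaction at an unadjusted p below 0.05, which 4.15% of all genes passed either way. The median ko minus wt difference was -0.06 in activated B cells, -0.35 in pre-plasmablasts and -0.45 in plasmablasts. Without ko activated B cell replicate 1 the median interaction was -0.34, with the pattern term -0.40, without wt replicate 1 in all populations -0.23, and rescaled to equal totals -0.29, where the median of all genes was 0.11 in place of 0.01.

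**Figure D3:**
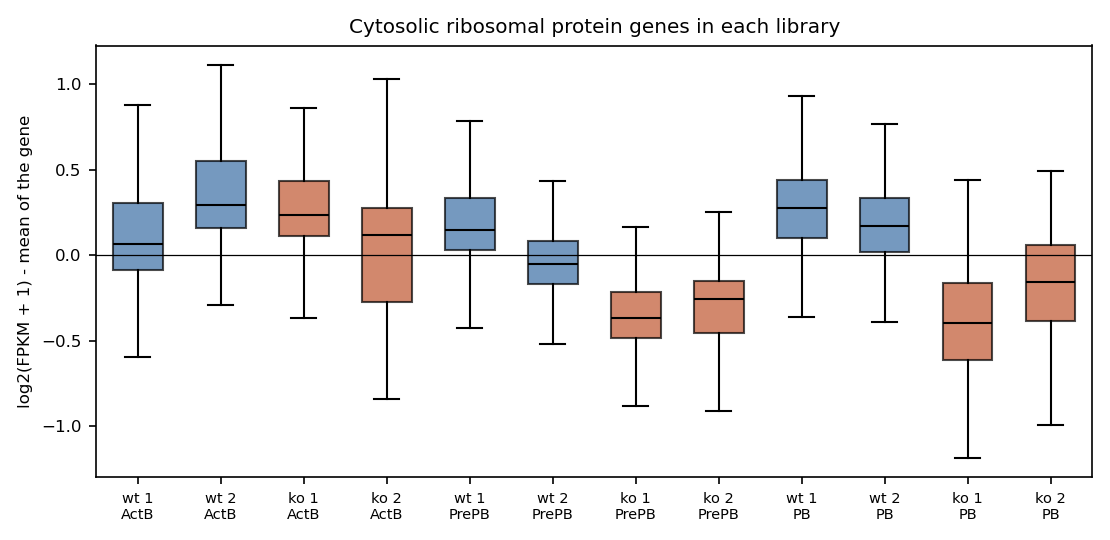
Boxes show 79 ribosomal protein genes in each library as log2(FPKM + 1) minus the gene's mean over the 12 libraries, with the median, the quartiles and whiskers to at most 1.5 times the box height (outlying genes are not drawn). The medians of the ko plasmablast libraries are -0.39 and -0.15, and those of the wt plasmablast libraries 0.28 and 0.17.

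Rpl6, of the large subunit, showed it most evenly. It had 56.1 and 60.7 FPKM in wt and 63.4 and 51.2 in ko activated B cells, and 54.7 and 55.3 in wt against 26.4 and 27.5 in ko plasmablasts. The interaction was -0.97 (SE 0.15, adjusted p = 0.103). Rpl10a had the most negative value of the set, -2.20 (adjusted p = 0.329), at only 0.527 to 2.15 FPKM in plasmablasts. Ribosomal protein genes and Tpt1 have near-identical pseudogenes, and how the authors' counting split such reads is not given in the sources used here. Short transcripts leaned the same way in general. The interaction was negative in 61.8% of 592 genes whose longest transcript is at most 1000 bases and in 36.9% of 3810 genes over 4000 bases, with medians of -0.08 and 0.05 (Tpt1 has 1169 bases). The part of transcript length in these values was not tested.

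Atp9a was the called gene that rose more in ko. It encodes a flippase, which moves phospholipids between the leaflets of endosomal and Golgi membranes. In activated B cells it was near the detection limit, at 0.0788 and 0.202 FPKM in wt and 0.137 and 0.673 in ko. Plasmablasts had 3.43 and 3.33 FPKM in wt and 23.2 and 25.2 in ko, with a wide gap between the genotypes. The change was 1.94 in wt and 4.19 in ko, and the interaction was 2.25 (SE 0.25, adjusted p = 0.00953). Pre-plasmablasts, which are outside the contrast, had 2.74 and 2.23 FPKM in wt and 14.0 and 15.3 in ko, a difference of 2.17 that passed (adjusted p = 0.000472). Because the activated cells are so low, the size depends on the pseudocount. With 0.1 in place of 1 it was 1.92 and not called (adjusted p = 0.999), and without wt replicate 1 it was 2.34 and not called (adjusted p = 0.304). The call also ended without wt activated B cell replicate 1 or 2 (adjusted p = 0.0554 and 0.0584), wt plasmablast replicate 2 (0.0561) and ko plasmablast replicate 1 or 2 (0.0527 and 0.0579).

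The remaining positive call, Snora28, rests on a pair of libraries. It is a small nucleolar RNA of the H/ACA class, which guides pseudouridylation of ribosomal RNA. Its sequence is printed to show that the whole RNA is far shorter than an mRNA, with the ACA box near its end in capitals (GENCODE vM21, GRCm38, 127 bases).
Snora28: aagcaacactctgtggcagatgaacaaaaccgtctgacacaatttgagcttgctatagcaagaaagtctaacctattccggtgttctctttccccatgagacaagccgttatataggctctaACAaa
Snora28 was at 76.2 and 33.5 FPKM in the wt activated B cell libraries and listed at 0 in the other 10 libraries. It passed the filter on low values through these 2 libraries alone, and its spread comes from 1 group, so its adjusted p carries little weight. The interaction (5.69, SE 0.40, adjusted p = 0.000417) has no fold, since it was 8.98 with a pseudocount of 0.1 and 3.48 with one of 5. The libraries were selected for polyadenylated RNA, and at such lengths a few fragments give a large FPKM. By size alone the most extreme genes were other small RNAs of this kind. Snord16a, Mir8104, Snora44 and Mir686 were at 3.25 to 5.22, and Snora65, Mir8112, Mir142b, Snora64 and Snora78 at -5.37 to -3.18, with 0 of the 9 called and at least 1 library of the 8 listed at 0 for each.

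The genes next in line were not called, and are given by rule as the lowest p in each direction. Pax5, Hvcn1 and Cxcr5 are among them, and Spib was named, with Pax5, for the lowest p on the B cell identity list. On the whole B cell identity list 18 of 34 interactions were above 0 and 16 below, with 0 called. Pax5, which keeps B cell identity, had 151 and 147 FPKM in wt and 190 and 191 in ko activated B cells, and 2.02 and 2.76 in wt against 7.24 and 5.92 in ko plasmablasts. ko libraries were above wt in both populations, the change was -5.48 in wt and -4.66 in ko, and the interaction was 0.81 (SE 0.18, adjusted p = 0.448). Hvcn1, a proton channel of B cells, had 123 and 151 FPKM in wt and 159 and 154 in ko activated B cells, and 10.7 and 11.5 in wt and 28.0 and 22.6 in ko plasmablasts. Its interaction was 0.91 (adjusted p = 0.273). Cxcr5, the receptor that leads B cells to follicles, had 8.12 and 7.41 in wt and 18.0 and 14.2 in ko plasmablasts (interaction 0.78, adjusted p = 0.356). Spib, a transcription factor of B cells, had 4.37 and 3.91 in wt and 17.2 and 9.94 in ko plasmablasts (1.12, adjusted p = 0.813). In plasmablasts alone, the ko and wt levels of Pax5, Hvcn1, Cxcr5 and Spib differed (adjusted p = 0.0031, 0.00316, 0.00539 and 0.0148), where 0.407% of all genes were called. Genotype and fragment pattern coincide in plasmablasts, and with the pattern term these adjusted p were 0.113, 0.115, 0.119 and 0.196, at log2 differences of 1.04, 1.04, 0.92 and 1.37. That term rests on the differences between the ko replicates of activated B cells and of pre-plasmablasts, where replicate 2 alone had the second pattern. Pattern and ko replicate therefore cannot be told apart in it. Such a call in plasmablasts is no test of the interaction.

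**Figure D4:**
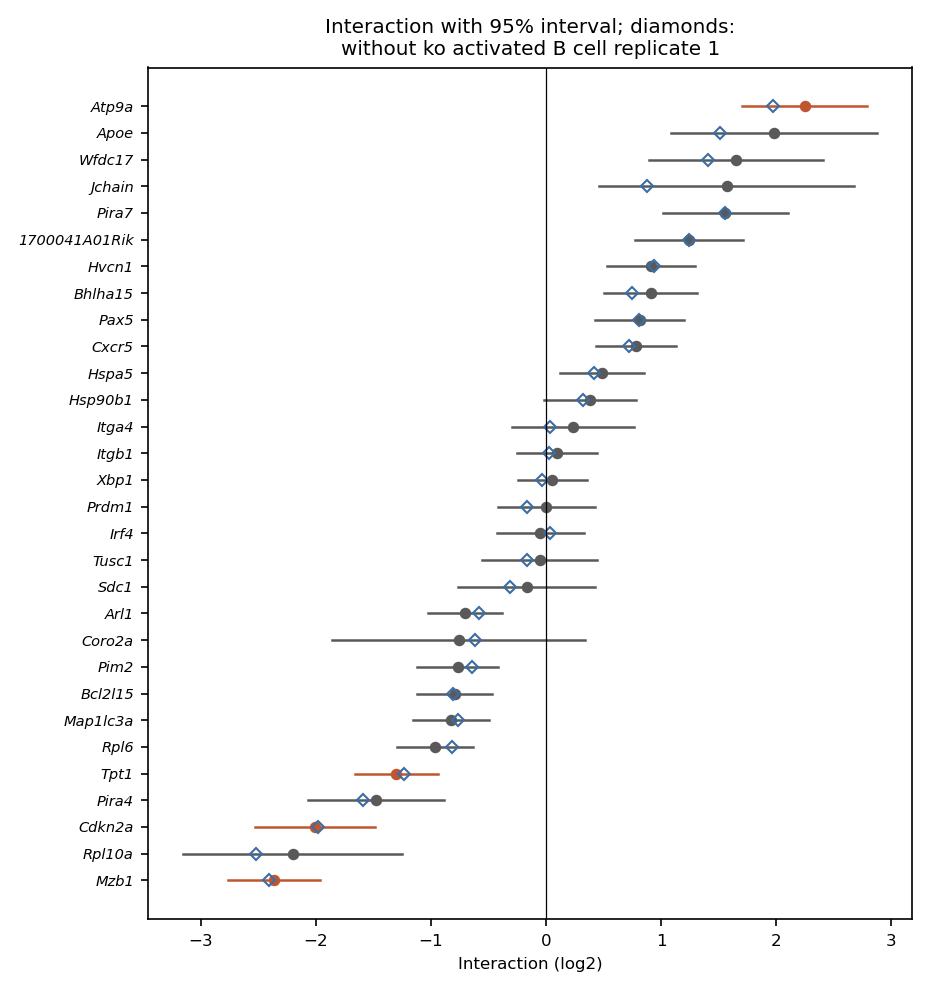
Interaction (log2) of 30 genes, the called ones in orange apart from Snora28, those next by p and the fixed set of genes always named, with bars for the 95% interval. Open diamonds give the value without ko activated B cell replicate 1, and the diamond lies inside the bar for all 30 genes.

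Apoe, the lipid carrier, had 87.1 and 83.1 FPKM in wt and 44.0 and 84.7 in ko activated B cells, and 92.6 and 130 in wt against 307 and 321 in ko plasmablasts. The ko plasmablasts stood above all other libraries of the contrast, but the interaction was not called (1.98, SE 0.41, adjusted p = 0.356). In pre-plasmablasts Apoe was far higher in both genotypes, at 1237 and 1757 FPKM in wt and 1466 and 2090 in ko. Bhlha15, a transcription factor of secretory cells also known as Mist1, had 4.39 and 4.44 FPKM in wt and 1.96 and 2.73 in ko activated B cells, and 102 and 122 against 125 and 133 in plasmablasts. Its interaction was 0.91 (adjusted p = 0.356) and 0.74 without ko activated B cell replicate 1. Wfdc17, at 1.65, was listed at 0 in both wt plasmablast libraries. 1700041A01Rik (1.24) was at 1.41 and 1.31 FPKM in ko plasmablasts and listed at 0 elsewhere. Pira7 (1.56) and Pira4 (-1.48) belong to a family of near-identical receptors. In activated B cells Pira7 was higher in both wt libraries than in both ko libraries, and Pira4 was lower. How reads were split between these genes was not tested.

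Of the 7 negative genes next in line, Map1lc3a, Bcl2l15 and Arl1 rose in both genotypes, with a smaller fitted rise in ko. Pim2, Rpl6, Rpl10a and Pira4 fell in ko, and of these Pim2 rose in wt while the other 3 did not pass there. Map1lc3a, an autophagosome protein, had 7.57 and 6.49 FPKM in wt and 10.2 and 9.29 in ko activated B cells, and 24.4 and 24.7 against 17.4 and 19.4 in plasmablasts. Its genotypes were in opposite order in the populations, but the ko minus wt difference passed in neither (adjusted p = 0.393 in activated B cells and 0.121 in plasmablasts). The interaction was -0.83 (SE 0.15, adjusted p = 0.234). Bcl2l15, of the Bcl-2 family, rose by 2.13 in wt and 1.34 in ko (interaction -0.79, adjusted p = 0.257), with 11.1 and 10.5 FPKM in wt and 5.12 and 4.86 in ko plasmablasts. Arl1, a small GTPase of the Golgi, had an interaction of -0.70 (adjusted p = 0.356).

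Nearly all tested genes of the secretory programme rose in both genotypes. Of 40 ER folding and quality control genes, 39 rose and 1 fell in each genotype, against 31% of all genes rising in wt and 31.2% in ko. None had a called interaction, but 32 of 40 were above 0, with a median of 0.18. An unadjusted p below 0.05 was passed by 9, all positive, and by 4.15% of all genes either way. The median ko minus wt difference was -0.16 in activated B cells, -0.00 in pre-plasmablasts and 0.08 in plasmablasts, and was larger in size in activated B cells than in plasmablasts. Without ko activated B cell replicate 1 the median was 0.08 with 28 above 0, and without replicate 2 it was 0.27 with 33 above 0.

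Hspa5, the main ER chaperone BiP, had 492 and 463 FPKM in wt and 359 and 396 in ko activated B cells, and 2321 and 2519 against 2606 and 2753 in plasmablasts. The genotypes were in opposite order in the populations, but their difference passed in neither (adjusted p = 0.499 in activated B cells and 0.57 in plasmablasts). The interaction was 0.49 (SE 0.16, adjusted p = 1). Hsp90b1, the partner of Mzb1, had 606 and 590 FPKM in wt and 419 and 456 in ko activated B cells, and 5162 and 5489 against 4704 and 5470 in plasmablasts (0.38, interval -0.02 to 0.78). Fkbp11, an ER prolyl isomerase, had an interaction of 0.85 (adjusted p = 0.566), and Hyou1, a co-chaperone of Hspa5, of 0.49 (adjusted p = 0.969). Of 47 translocation and vesicle transport genes 47 rose in wt and 46 in ko, against 31% and 31.2% of all genes. Their median interaction was 0.05 (0.03 without ko activated B cell replicate 1). Of 36 N-glycosylation genes 34 rose in wt, and 33 rose and 1 fell in ko, with a median of 0.10 (0.04 without that library). Hid1 (0.66), Srprb (0.33), Dad1 (0.38) and Mogs (0.21) had the lowest p of these lists, and 0 were called. The amino acid supply and ATF4 genes had a median of -0.02 over 25 genes, with Trib3 at 0.46 and Sesn2 at -0.41. That median was 0.01 without ko activated B cell replicate 1, 0.09 rescaled to equal totals and 0.02 with quantile normalization.

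**Figure D5:**
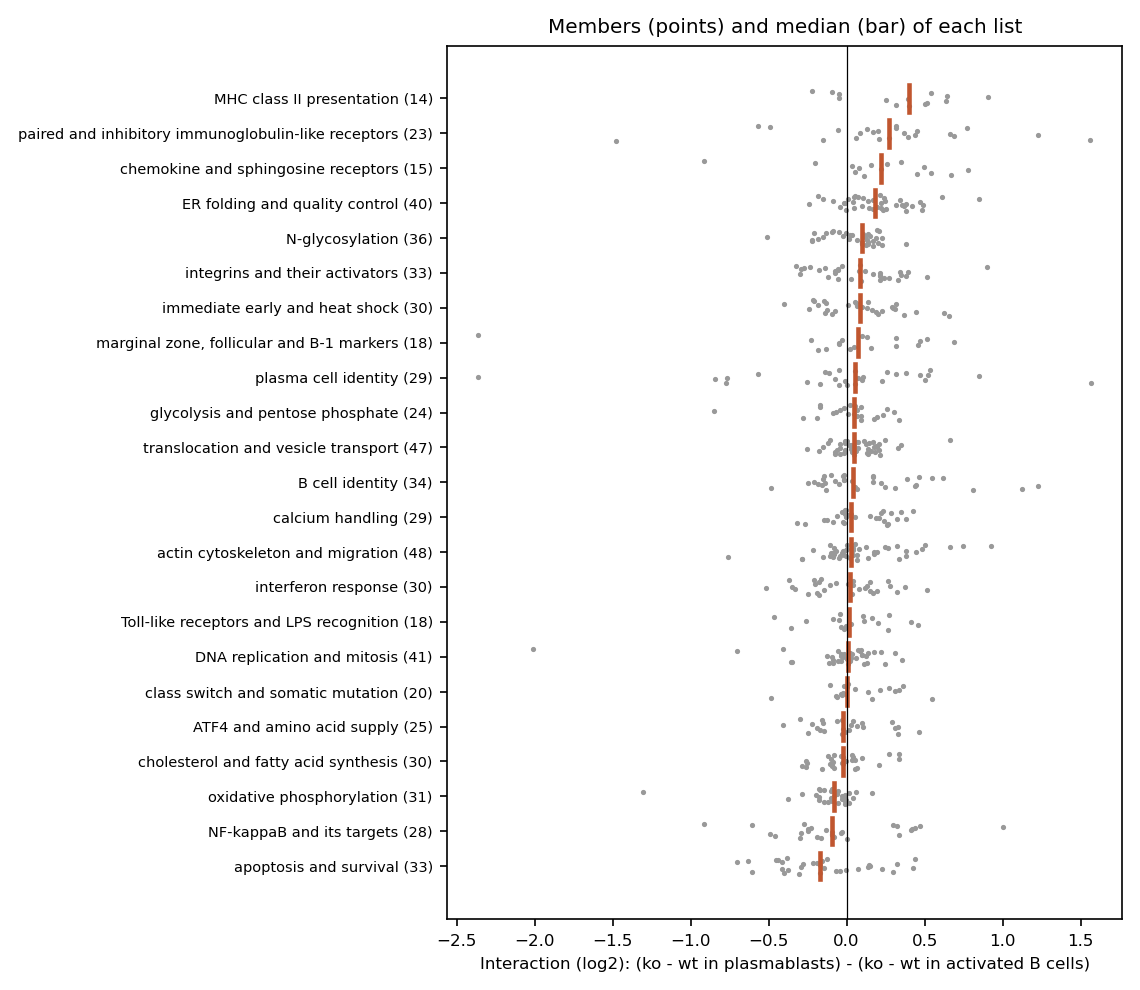
Interaction (log2) of each tested member (grey points) of 23 gene lists, with the list median as an orange bar and the number of members tested in brackets. The medians run from -0.17 for apoptosis and survival to 0.40 for MHC class II presentation, and the separate points at -2.36 are Mzb1, which is on 2 lists, and at -2.01 Cdkn2a.

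Lists of cell identity changed in the same direction in both genotypes. Of 29 plasma cell identity genes 28 rose in wt and 27 in ko, against 31% and 31.2% of all genes. Their median interaction was 0.05, with Mzb1 as the called member. That median turned to -0.03 without ko activated B cell replicate 1 and to -0.02 with the pattern term. Of 34 B cell identity genes 26 fell in each genotype, against 31% of all genes in wt and 30.9% in ko. Their median interaction was 0.04 (0.01 without ko activated B cell replicate 1). Antigen presentation by MHC class II, which B cells lose as they become plasma cells, had the largest median of the 23 lists. Of its 14 members 12 fell in wt and 10 in ko, and 2 rose in each, against 31% and 30.9% of all genes falling. The summed FPKM of the list did not fall. It was 9464 to 11482 in wt activated B cells and 12211 to 12850 in wt plasmablasts, and 10152 to 12471 and 13711 to 14340 in ko. The interaction was above 0 in 10, and the median was 0.40. At an unadjusted p below 0.05 there were 5 positive members, where 4.15% of all genes passed either way, and 0 were called. H2-Eb2, a class II beta chain, had 5.92 and 5.87 FPKM in wt and 5.10 and 5.17 in ko activated B cells, and 3.17 and 3.28 against 4.75 and 4.92 in plasmablasts. It fell by 0.71 in wt, and in ko the change was -0.07 and did not pass (interaction 0.63, SE 0.14, adjusted p = 0.485). H2-Oa, a chain of the peptide-loading modulator H2-O, had 0.479 and 0.172 FPKM in wt and 1.93 and 1.61 in ko plasmablasts (0.91, adjusted p = 0.817). Without ko activated B cell replicate 1 the MHC median was 0.30, and without replicate 2 it was 0.49.

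Paired and inhibitory receptors had a median of 0.27 with 18 of 23 above 0, and the chemokine and sphingosine receptor list 0.22 with 13 of 15 above 0. The latter list also holds Ebi3, a cytokine subunit and no receptor, which had its lowest value (-0.92). Each had 0 called members. The class switch list (0.01), the marginal zone, follicular and B-1 list (0.07, with Mzb1 called) and the immediate early and heat shock list (0.09, with Egr2 at 0.44 and Fos at 0.66) had medians nearer 0.

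Itgb1 encodes β1 integrin, which the title of the series names. It had 137 and 168 FPKM in wt and 122 and 135 in ko activated B cells, and 37.7 and 36.3 against 31.4 and 35.4 in plasmablasts. It fell in both genotypes, and the interaction was 0.10 (SE 0.16, interval -0.25 to 0.44). Itga4, its α4 partner, had 19.1 and 14.8 in wt and 11.9 and 16.0 in ko activated B cells, and 75.6 and 64.0 against 61.1 and 75.6 in plasmablasts, with an interaction of 0.24 (interval -0.29 to 0.77). Of 33 integrins and activators tested, 0 were called and the median was 0.09. It was 0.02 without ko activated B cell replicate 1, 0.15 without replicate 2 and 0.01 with the pattern term. The αv chain Itgav was at 0.38 (adjusted p = 1). Of 48 actin cytoskeleton and migration genes 41 fell in wt and 42 in ko, against 31% and 30.9% of all genes. Their median was 0.03, and -0.03 without ko activated B cell replicate 1, with Lcp1 at 0.38 and Rhoh at 0.45.

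Lists with negative medians were fewer. Apoptosis and survival genes had 23 of 33 below 0, a median of -0.17 (-0.06 rescaled to equal totals) and 0 called. At an unadjusted p below 0.05 there were 7 negative and 0 positive, where 4.15% of all genes passed either way. Bcl2l1, which encodes the survival protein Bcl-xL, had 13.9 and 13.8 FPKM in wt and 16.2 and 14.0 in ko activated B cells, and 138 and 135 against 110 and 113 in plasmablasts (interaction -0.40, SE 0.12, adjusted p = 0.969). Bax, a pore-forming effector of apoptosis, was at -0.37. Oxidative phosphorylation had 26 of 31 below 0 with a median of -0.08, which was -0.01 with 16 of 31 below 0 without wt replicate 1 and 0.03 rescaled to equal totals. Cox7c (-1.30) was at 7.51 and 24.7 FPKM in ko plasmablasts, so its replicates were far apart. NF-kappaB targets had 19 of 28 below 0 with a median of -0.09 that turned to 0.02 rescaled to equal totals. Ebi3, a cytokine subunit, was at -0.92 and Ltb, a lymphotoxin chain, at 1.00. In the interferon response list (median 0.02) Isg15, a ubiquitin-like protein, had 72.6 and 72.8 FPKM in wt and 36.6 and 45.8 in ko plasmablasts, with activated libraries at 59.6 and 57.8 against 49.3 and 46.0. Its interaction was -0.52 (adjusted p = 0.834). That median turned to -0.10 without ko activated B cell replicate 1 and to -0.06 with quantile normalization.

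Toll-like receptors (0.01), calcium handling (0.03), DNA replication and mitosis (0.01), cholesterol and fatty acid synthesis (-0.02) and glycolysis (0.05) had medians close to that of all genes, and Cdkn2a was their 1 called member. Signs of such small medians turned with the setting, as for DNA replication and mitosis (-0.03 without wt replicate 1) and glycolysis (-0.02 with the pattern term). The cholesterol median was 0.08 rescaled to equal totals, below that of all genes under this scaling. Tlr9, which senses DNA, was at 0.46 and Irak2, a signalling kinase, at -0.47. Atp2a2 and Ppp3r1 of the calcium list were at 0.26 and 0.22, Stard4 and Abca1 of the cholesterol list at 0.34 and 0.33, and Slc2a3 and Pgk1 of the glycolysis list at 0.34 and 0.30.

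Coro2a and Tusc1, which like Mzb1 were called between the genotypes in each of the 3 populations, had no interaction call. Coro2a, an actin-binding coronin, had 17.0 and 32.3 FPKM in wt and 0.706 and 0.406 in ko activated B cells, and 37.8 and 70.2 against 1.16 and 0.786 in plasmablasts. Its interaction was -0.76 with a wide interval of -1.86 to 0.34, and its wt replicates lay far apart. Tusc1 had 3.82 and 3.45 in wt and 9.80 and 11.6 in ko activated B cells, and 2.45 and 2.64 against 8.77 and 6.55 in plasmablasts (-0.05, interval -0.55 to 0.45). Of 20 genes neighbouring Mzb1, 0 were called and the median was -0.01, with Spata24 at -0.52 and Reep5 at 0.34.

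Of the markers of other cell types, 9 of 69 exceeded 5 FPKM in any library, led by Cd2 (at most 195 FPKM), Cd68 (35.5), Adgre1 (28.2) and Flt3 (22.2). In bulk samples fewer cells of a type and less RNA per cell cannot be told apart. The 11 T cell markers in the files, some of which B cells also express, summed to 165 to 204 FPKM in wt and 170 to 194 in ko activated B cells, and to 41.2 to 48.8 and 51.5 to 53.9 in plasmablasts. Of 18 macrophage and granulocyte markers 14 stayed below 1 FPKM in every library and 5 were listed at 0 throughout, with sums of 33.1 to 33.6 in wt and 32.7 to 43.3 in ko plasmablasts. The natural killer markers summed to at most 7.56 FPKM, the dendritic cell markers to at most 26.6, the erythroid and platelet markers to at most 2.43 and the stromal markers to at most 1.36. None of the tested markers of these 6 lists had a called interaction. Their part in the results above was not tested.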

How the data were processed

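RNA was measured in 12 libraries, 2 for each of 3 sorted populations and 2 genotypes. Per the labels' protocols, RNA was isolated on columns, selected with oligo-dT and made into stranded TruSeq libraries. The deposited files hold FPKM, 1 column per library and 24325 gene symbols. Per the submitters' processing notes reads were demultiplexed with bcl2fastq (0.3.1 and 2.17.1.14), and TopHat2 (2.0.14), Cufflinks and Cuffnorm (both 2.2.1) and Cuffdiff were used with the mm9 build. The annotation, scaling and filters are not given in the sources used here.

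Values were analysed as log2(FPKM + 1), so a fold understates the change of low genes. The 11069 genes that reached 1 FPKM in 2 or more of the 12 libraries were tested. limma 3.58.1 (R 4.3.3, limma-trend, two-sided) was fitted with 1 coefficient for each of 6 groups on all 12 libraries, with 6 residual and 4.49 prior degrees of freedom, and the interaction was a contrast over 8. Benjamini-Hochberg adjustment ran over all genes tested, with calls below 0.05. With 2 libraries a group an exact permutation test cannot reach that threshold, and tools for counts could not be used.

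The question, the 31 gene lists (789 symbols, 782 in the files, 686 tested) and the genes always named were chosen with earlier results of these data known. The rule named 13 genes always, called genes, the lowest p up to 10 each way, the 5 largest each way among genes with a group mean of at least 5 FPKM, and from each list its called members or else the 2 with the lowest p. Fragment patterns were told from values below 0.5 FPKM, by the share of genes at the most frequent ratio of 2 libraries (log2 tolerance 0.002). On simulated data with 100 genes changed by 1 and 100 by 2 (log2) among 11069, the interaction test called 95 and 99 of them, with 8 false calls. The changed genes were picked among those well expressed in plasmablasts, and the simulated noise was normal and independent between libraries. These shares do not carry over to low genes or to data in which fewer genes change, so a gene not called may still differ. Sequences came from RefSeq and GENCODE tables of GRCm38, matched by symbol. Settings tried were filters, pseudocounts, scalings, the 8 libraries alone, replicate blocks, duplicateCorrelation, the pattern term, variance models and left-out libraries. Leaving out small RNA genes and the list medians without single libraries or under other scalings, and the pattern term for plasmablast values of single genes, were added after the data had been seen. Python 3.11.15 with matplotlib 3.10.9 drew the figures.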

Additional observations from a re-analysis of the deposited data

Results flagged for a closer look

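For 4 genes, wt and ko differed in the change from activated B cells to plasmablasts by the test of that difference, with interactions of -2.36 for Mzb1, -2.01 for Cdkn2a, -1.30 for Tpt1 and 2.25 for Atp9a. Mzb1 is the deleted gene itself. The calls of Cdkn2a, Tpt1 and Atp9a were lost in 10, 14 and 10 of 31 other settings, among them the removal of single libraries. Snora28 (5.69) also passed, but it entered the test through 2 libraries and was at 0 in the other 10, so its p carries little weight and its size depends on the pseudocount. The pre-plasmablast libraries are outside the contrast, though the fit used them for the spread. Among these genes they showed a called difference between ko and wt for Mzb1 (-3.50) and Atp9a (2.17). Such a difference in 1 population is no test of the interaction. In the same libraries the difference was -0.79 for Cdkn2a and -0.48 for Tpt1, which did not pass, and Snora28 was listed at 0 in all 4.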

How the results depend on the processing

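The number of interaction calls was 4 to 7 in 15 settings that keep all replicates, 2 to 10 with 1 library left out and 5 to 7 with a replicate number of a genotype left out. It was 2 without wt activated B cell replicate 1 or wt plasmablast replicate 2, 3 without ko plasmablast replicate 1, ko plasmablast replicate 2 or ko activated B cell replicate 1, and 10 without ko activated B cell replicate 2, where Apoe, Fkbp11, Jchain, Ltb and Rpl6 were added. Mzb1 was called in 30 of 31 settings, Snora28 in 30 of the 30 that test it, Atp9a and Cdkn2a in 21 and Tpt1 in 17, and none of the 90 named genes had a called value that changed sign. Without filtering 7 genes were called, of which 2 (Mzb1 and Snora28) were among the 5. Rescaling to equal totals moved the median interaction of all genes to 0.11 and called 6.

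Labels do not tie replicate numbers to animals. Replicate differences correlated across genes at 0.24 (activated B cells with plasmablasts), 0.05 (activated B cells with pre-plasmablasts) and 0.32 (pre-plasmablasts with plasmablasts) in wt, at 0.11, 0.29 and 0.10 in ko, and between genotypes at -0.11, -0.08 and -0.05. All 3 wt replicate 1 libraries share high Xist, so in wt the replicate number followed the sex of the cells. The main fit left this pairing out, since not every pair exceeded 0.1. With the replicate block within genotype 6 genes were called (Rpl10a was added), and with the replicate block across genotypes 5.

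Wild-type transition calls lay between 5188 and 7924 and those of ko between 5094 and 7544. The knockout effect in plasmablasts gave 45 calls, against 27 without a filter, 72 with equal totals, 21 with the 8 libraries alone, 4 with the pattern term, 27 without a trend and 69 with robust moderation. It gave 10 to 45 with 1 library left out, and 7 to 74 with a replicate number left out. In activated B cells the 6 calls became 10 without a filter and 10 with a pseudocount of 5, with 3 to 7 and 4 to 14 on leaving out libraries. In pre-plasmablasts the 13 calls became 20 with a pseudocount of 5, 20 with quantile normalization, 24 with equal totals and 21 with robust moderation, with 7 to 25 and 10 to 19 on leaving out libraries. The cause of these moves was not tested. A group left with 1 library borrowed its spread from the other groups.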

Other observations

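Reep5, an ER-shaping protein whose gene neighbours Mzb1, had 42.5 and 53.2 FPKM in wt and 75.1 and 76.2 in ko activated B cells, 106 and 97.4 against 206 and 204 in pre-plasmablasts, and 140 and 136 against 262 and 292 in plasmablasts. The ko libraries were above wt in all 3 populations, and the difference was called in pre-plasmablasts (1.00, adjusted p = 0.00275) and in plasmablasts (1.00, adjusted p = 0.0031, or 0.108 with the fragment pattern term) but not in activated B cells (0.66, adjusted p = 0.0943). Its interaction of 0.34 (SE 0.15) was not called.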
